A study of Homo sapiens with 12 samples.

Results

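COL1A1, COL5A2, COL6A1, COL6A2 and COL18A1 encode chains of the fibrillar collagens I and V, the microfibrillar collagen VI and the basement membrane collagen XVIII. They are 5 of the 13 collagen genes on a panel of 770 genes, of which 740 are endogenous and 30 are housekeeping genes. They were chosen by name with their values in these tables known: 6 collagen genes had a printed p under 0.05 in at least 1 comparison, and the 5 are those other than COL7A1. The values against control therefore chose the genes and are given as a description.

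RNA of the human cell line HCT-116, an established line from an epithelial colorectal carcinoma, was measured on the nCounter PanCancer Progression panel, in which fluorescent barcodes on hybridised probes are counted without amplification. Cells received heteronemin, tetrac or both compounds together for 24 h, or were controls, with 3 samples in each of the 4 groups and 12 in all. Heteronemin is a sesterterpenoid of marine sponges and tetrac is tetraiodothyroacetic acid, a deaminated thyroxine analogue. All groups are the same unmodified line, and no source used here gives the doses, the control's vehicle or whether a group's samples were separate cultures. The study's title asks whether both compounds act against proliferation by blocking EGFR signalling, which the panel does not measure.

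Collagens are trimers of chains that wind around each other through repeats of glycine and 2 further residues. Fibrillar collagens such as types I, III and V form the tensile fibres of the stroma and are made mainly by fibroblasts. Collagen VI forms beaded microfilaments near the cell surface, and collagen XVIII sits in basement membranes, where its C-terminal fragment endostatin is known as an inhibitor of angiogenesis. In carcinomas most fibrillar collagen comes from the stroma, although tumour cells can transcribe collagen genes themselves.

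The authors' tables hold 1 mean of normalized counts per group and gene, a fold change against control and a p-value printed to 2 decimals. Only these group values were analysed, so a SD, an interval or the depth of a sample cannot be given, and the p-values rest on the spread between 3 samples a group, which may be technical. A gene is called here at a printed, unadjusted p under 0.05. The lowest value in the tables is 33, a floor below which nothing is listed. If the floor replaced lower values, which the tables do not state, a control mean at the floor may be too high. A treated mean may be too high as well, where some of its samples lay at the floor. A fold against a mean at the floor is then a lower bound only if no treated sample was raised. Probes differ in efficiency, so a difference in mean between genes is not read as a difference in transcript number. Where genes are sorted by mean level, it stands only for the count range in which their probes were read. The sum of all means was between 280484 and 306898 in the treated groups, against 333810 in control. At the floor were 61 to 90 genes in the treated groups, against 279 in control.

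COL1A1 encodes the alpha-1 chain of collagen I, the main protein of connective tissue fibres. The authors' mean for COL1A1 was 144.34 with heteronemin, 86.02 with tetrac and 133.25 with the combination, against 67.15 in control. All treated means lay above control, and the groups with heteronemin lay highest. In the authors' deposited table this was a 2.15-fold rise after heteronemin (p = 0.04) and values of 1.98-fold under the combination (p = 0.07) and 1.28-fold after tetrac (p = 0.54), neither of them called. The Benjamini-Hochberg adjusted p over the whole table was 0.147 for heteronemin and 0.253 for the combination.

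COL5A2 encodes the alpha-2 chain of collagen V, which is built into collagen I fibrils and controls their start and width. Its mean was 109 with heteronemin, 58.04 with tetrac and 72.25 with the combination, against 57.75 in control. Heteronemin alone stood apart, and tetrac differed from control by less than 1 normalized count (0.29). In the authors' deposited table COL5A2 rose 1.89-fold after heteronemin (p = 0.01, Benjamini-Hochberg adjusted p = 0.0828 over the table). In the authors' deposited table it was 1.25-fold higher under the combination without being called (p = 0.4), and the tetrac p was 0.98.

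COL6A1 encodes the alpha-1 chain of collagen VI. Its mean was 260.46 with heteronemin, 285.98 with tetrac and 223.67 with the combination, against 309.39 in control. Each treated mean was below control, the combination furthest. COL6A1 fell 1.38-fold under the combination in the authors' deposited table (p = 0.02, Benjamini-Hochberg adjusted p = 0.120). The heteronemin value of 1.19-fold lower (p = 0.09) and the tetrac value of 1.08-fold lower (p = 0.39) were not called in the authors' deposited table.

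COL6A2 encodes the alpha-2 chain, which assembles with that of COL6A1 into the collagen VI trimer. Its mean was 251.04 with heteronemin, 257.1 with tetrac and 269 with the combination, against 291.68 in control. Here the combination lay nearest to control, yet it was the comparison with a call: COL6A2 fell 1.08-fold in the authors' deposited table, with p = 0.04 and a Benjamini-Hochberg adjusted p of 0.179. The larger difference after heteronemin, 1.16-fold lower, had p = 0.09, and the tetrac value of 1.13-fold lower had p = 0.34, both in the authors' deposited tables. With every group scaled to the same panel sum in place of the authors' normalization, the log2 ratio of COL6A2 was 0.05 in place of -0.12 under the combination and 0.03 in place of -0.22 after heteronemin. The same scaling put COL6A1 at 0.00 after heteronemin and 0.01 after tetrac, and raised the median of all genes by 0.25 after heteronemin, 0.12 after tetrac and 0.17 under the combination.

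COL18A1 encodes the alpha-1 chain of collagen XVIII, a heparan sulfate proteoglycan. Its mean was 227.19 with heteronemin, 264.4 with tetrac and 184.96 with the combination, against 282 in control. The order of the groups was that of COL6A1. COL18A1 fell 1.52-fold under the combination in the authors' deposited table (p = 0.02, Benjamini-Hochberg adjusted p = 0.120). After heteronemin it was 1.24-fold lower with a printed p of 0.05, just outside the call, and after tetrac 1.07-fold lower (p = 0.24), in the authors' deposited tables. On the scale of equal panel sums its tetrac log2 ratio was 0.03 in place of -0.09. Among the calls, the printed p nearest to the threshold was 0.04, for COL1A1 after heteronemin and COL6A2 under the combination.

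**Figure D1:**
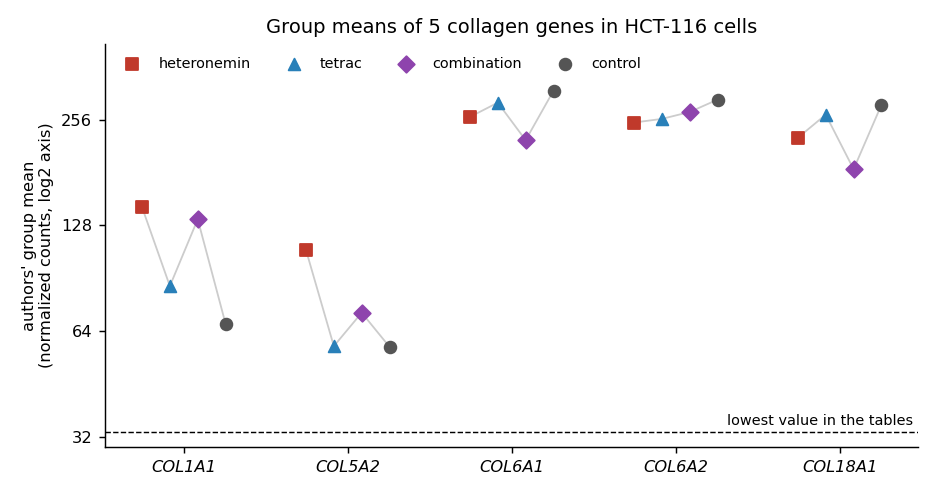
Authors' group mean (normalized counts, log2 axis) of the 5 collagen genes, with heteronemin, tetrac, combination and control from left to right within each gene and the floor of 33 as a dashed line. COL1A1 and COL5A2 were highest after heteronemin, at 144.34 and 109, while COL6A1, COL6A2 and COL18A1 were highest in control, at 309.39, 291.68 and 282.

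By call, 2 of the 5 genes rose and 0 fell after heteronemin, where 27.1% of 704 tested genes were called, 11.2% higher and 15.9% lower. Under the combination 0 rose and 3 fell, where 22.3% of 686 tested genes were called, 8.16% higher and 14.1% lower. After tetrac 0 were called, where the share was 1.26% of 714 tested genes, or 9 genes. These calls chose the genes, so nothing is read from the counts against those shares. After tetrac the shares were 0.28% higher and 0.98% lower. With Benjamini-Hochberg adjustment 0 of the 5 genes passed in any comparison, where 5.82% of tested genes passed for heteronemin, 0.0% for tetrac and 7.0% for the combination. The highest p that rounding permits left 0.0% of genes in each comparison.

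COL18A1 and COL6A2 both fell under the combination, and start-site sequences of RefSeq (GRCh38.p14) were matched by symbol for these 2 of the 5 genes. They are shown because the sequence source had no entry for COL1A1, COL5A2 or COL6A1. COL6A1 also fell under the combination and has no window here. The part of these sequences in the results was not tested. Each window runs from 250 bases before to 50 after an annotated start, 5′ to 3′ on the plus strand, with GC boxes (GGGCGG, or CCGCCC on the other strand) in capitals. The windows are chr21:45404915-45405214 and chr21:45455272-45455571 for COL18A1 and chr21:46097862-46098161 for COL6A2.
COL18A1, upstream start: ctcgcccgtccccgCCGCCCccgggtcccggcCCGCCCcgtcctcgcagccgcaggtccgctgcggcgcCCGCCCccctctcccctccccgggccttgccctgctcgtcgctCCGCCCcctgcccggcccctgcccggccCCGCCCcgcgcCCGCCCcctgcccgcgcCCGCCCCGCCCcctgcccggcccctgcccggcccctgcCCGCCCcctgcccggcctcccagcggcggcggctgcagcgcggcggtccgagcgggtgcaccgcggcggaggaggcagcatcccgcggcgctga
COL18A1, downstream start: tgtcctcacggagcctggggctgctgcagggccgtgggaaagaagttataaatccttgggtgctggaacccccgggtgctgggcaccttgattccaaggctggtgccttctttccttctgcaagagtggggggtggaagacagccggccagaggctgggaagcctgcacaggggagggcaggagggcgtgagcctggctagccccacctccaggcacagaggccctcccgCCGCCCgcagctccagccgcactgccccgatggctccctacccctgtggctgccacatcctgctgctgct
COL6A2: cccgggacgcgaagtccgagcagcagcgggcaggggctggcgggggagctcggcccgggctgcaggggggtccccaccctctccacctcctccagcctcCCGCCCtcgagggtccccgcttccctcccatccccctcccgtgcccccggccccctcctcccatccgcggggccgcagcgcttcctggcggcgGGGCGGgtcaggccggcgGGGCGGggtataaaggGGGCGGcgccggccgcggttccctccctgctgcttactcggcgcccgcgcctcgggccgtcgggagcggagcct

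The upstream COL18A1 window held 9 GC boxes, with overlapping ones counted, 86.7% G or C and 46 CG pairs. The COL6A2 window held 4 GC boxes, 79.3% G or C and 36 CG pairs. The downstream COL18A1 window held 1 GC box, 66.3% G or C and 10 CG pairs, so the windows of COL18A1 differ from each other. A GC box was found in 45.0% of 35116 windows of 300 bases, whose median was 58.7% G or C and 14 CG pairs. The letters TATAA or TTATA, found in 20.4% of windows, occurred once in the COL6A2 window, as 2 overlapping matches in the downstream COL18A1 window, and not in the upstream one. CCAAT or ATTGG (34.6% of windows) and the AP-1 letters TGANTCA (7.71%) were in none of the 3 windows. The tables do not give the probes' positions, so the start from which the counted COL18A1 transcripts came is not known.

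The other chains of the same trimers had control means at the floor or within 1 normalized count of it, and COL5A1 lay well above it with heteronemin. Collagen I pairs the COL1A1 chain with that of COL1A2, and the COL1A2 mean was 36.85 with heteronemin, 34.28 with tetrac and 33 with the combination, against 33 in control. The rise of COL1A1 after heteronemin thus stood beside a partner chain of 1.12-fold in the authors' deposited table (p = 0.41). COL5A1, the partner of COL5A2 in collagen V, had means of 79.9, 47.41 and 46.86 with heteronemin, tetrac and the combination, against 33.86 in control. Its 2.36-fold value after heteronemin was not called in the authors' deposited table (p = 0.07). COL6A3, the third chain of collagen VI, had means of 47.99, 41.18 and 40.74 in the same treated groups, against 33 in control. With control at the floor, COL6A3 could not be listed lower, so its ratios above control are not read against those of COL6A1 and COL6A2. None of the COL6A3 values was called in the authors' deposited tables (p = 0.19, 0.42 and 0.42).

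Of the remaining collagens, COL4A1, COL4A2 and COL4A6, chains of the basement membrane network collagen IV, were at the floor in all 4 groups. COL3A1, the chain of collagen III, had means of 60.52 with heteronemin, 46.18 with tetrac and 46.75 with the combination, against 33 in control, and was not called. COL7A1, the anchoring fibril collagen of the skin and other epithelia, had means of 111.07, 63.08 and 107.55 in the same treated groups, against 51.13 in control. It rose 2.17-fold after heteronemin (p printed as 0) and 2.1-fold under the combination (p = 0.02) in the authors' deposited table. Over all 13 collagens the median log2 ratio was 0.16 after heteronemin, 0.01 after tetrac and 0 under the combination. The median over all 770 genes was 0.11, 0.02 and 0.09 in the same order.

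**Figure D2:**
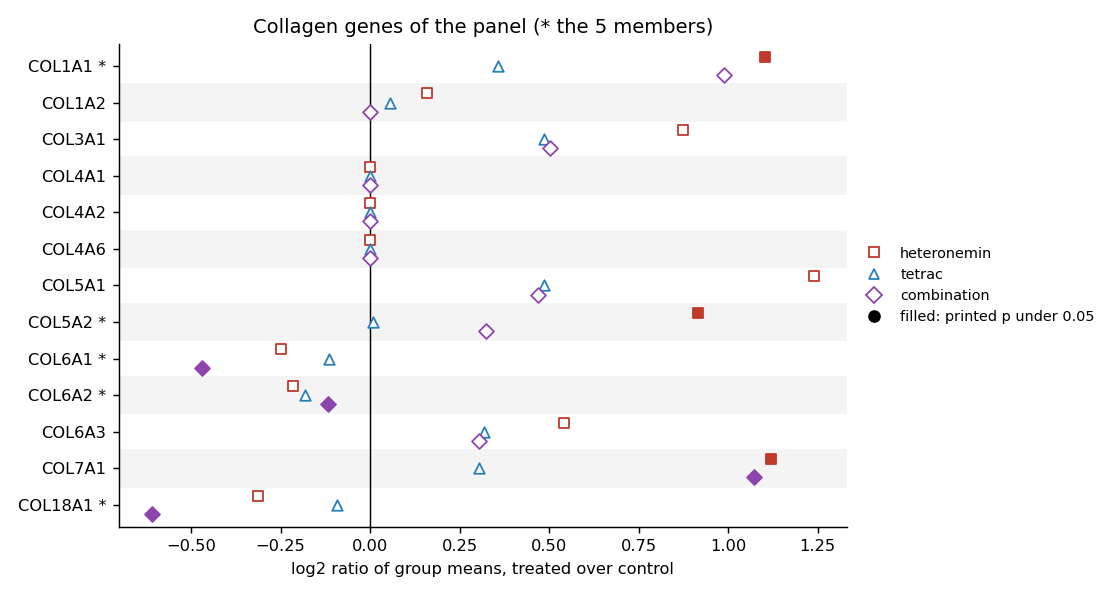
Log2 ratio of the authors' means, treated over control, for the 13 collagen genes of the panel, with 1 row per gene, heteronemin above tetrac above combination in each row, and filled symbols at a printed p under 0.05. COL6A1, COL6A2 and COL18A1 are the genes left of 0, and the collagen IV chains sit at 0 because all their means are at the floor. The 6 collagens at the floor in control cannot lie left of 0.

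Many genes whose control mean was 33 had a printed p of 0.42, as in the tetrac and combination tables for COL3A1 and COL6A3. A comparison with unequal variances gives 0.423 when 1 of 6 samples lies above 5 equal ones, whatever its value. Among genes with a control mean of 33 and a higher treated mean, this p was printed for 212 of 223 with tetrac, 148 of 195 with the combination and 10 of 213 with heteronemin. How many samples lay above the floor for COL3A1 or COL6A3 is not known from these tables.

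Combined treatment was set beside each single treatment for the 5 genes, as ratios without a test since the tables compare with control only. For COL5A2 the combination was lower than heteronemin alone, with a log2 ratio of -0.59, and for COL1A1 that ratio was -0.12. It was -0.22 for COL6A1, 0.10 for COL6A2 and -0.30 for COL18A1. Against tetrac alone the log2 ratio of the combination was 0.63 for COL1A1, 0.32 for COL5A2, -0.35 for COL6A1, 0.07 for COL6A2 and -0.52 for COL18A1. COL18A1 and COL6A1 were thus lower under the combination than under each single compound, while COL1A1 and COL5A2 lay between them.

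Additivity was described as the log2 ratio of the combination minus the sum of the log2 ratios of both single treatments, which would be 0 if the compounds added up on this scale. It was -0.47 for COL1A1 and -0.60 for COL5A2, whose combined values were below that sum. It was -0.11 for COL6A1 and -0.20 for COL18A1, also below it, and 0.28 for COL6A2, above it. Among the other collagens it was -0.35 for COL7A1. It was -0.21 for COL1A2, -0.86 for COL3A1, -1.26 for COL5A1 and -0.56 for COL6A3, whose control means were at or near the floor. Values below the sum were thus not particular to COL1A1 and COL5A2. For COL5A2 the sum of the single ratios was 0.92, nearly all from heteronemin, and the combination stood at 0.32. These quantities have no error, and all of them share the control samples.

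Across the panel the ratio against control varied with the count level at which a gene was read, so the levels of the 5 genes are given beside their ratios. The mean over the 4 group means was 107.69 for COL1A1 and 74.26 for COL5A2, and 269.875, 267.205 and 239.637 for COL6A1, COL6A2 and COL18A1. Among the 95 genes with a mean level from 50 to under 75, that of COL5A2, the median log2 ratio was 1.14 after heteronemin, above the 0.92 of COL5A2 itself. Among the 90 genes from 100 to under 200, that of COL1A1, it was 0.09, against 1.10 for COL1A1. Among the 106 genes from 200 to under 400, where the other 3 genes lie, it was -0.15 after heteronemin and -0.08 under the combination, and 27 of the 106 were called lower and 15 higher under the combination.

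Set against the 51 genes nearest in level, COL1A1 lay 0.84 above their median after heteronemin and 0.97 above it under the combination, on the log2 scale. COL5A2 lay 0.10 above that median after heteronemin, and its difference was -0.14 under the combination. After heteronemin the median of its 51 nearest genes was 0.82, against 1.14 for its class. The position of COL5A2, close to the class border of 75, thus depended on which genes it was set against. COL18A1 and COL6A1 had differences of -0.54 and -0.35 under the combination, and COL6A2 of -0.02. After heteronemin alone the differences of COL6A1, COL6A2 and COL18A1 were -0.08, -0.06 and -0.21, and after tetrac that of COL5A2 was -0.23. The differences of COL6A1 and COL18A1 were thus larger under the combination than under either compound alone, and none of these values has an error. Treated means enter this level, so genes near 33 in control can belong to a higher class only through a higher treated mean. COL1A1 too was matched at 107.69, raised by its treated means above its control mean of 67.15. The classes from 50 to under 75 and from 75 to under 100 had medians of 1.14 and 0.65 after heteronemin. Under the combination these medians were 0.55 and 0.34. The difference of COL1A1 from genes matched on the control mean was not computed. The part of level in the results was not tested beyond these differences.

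**Figure D3:**
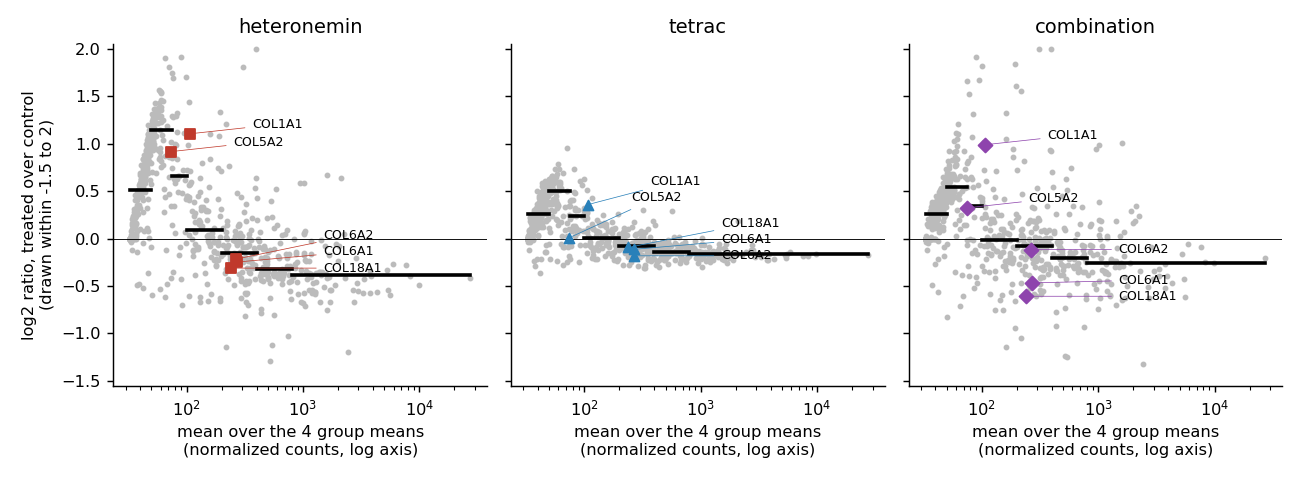
Log2 ratio, treated over control, against the mean over the 4 group means (log axis) for all 770 genes in grey, with the 5 collagen genes in colour and the median of each level class as a black bar. COL5A2 sits below the bar of its class at 1.14 after heteronemin, while COL1A1 at 1.10 sits above its bar at 0.09. Both genes lie near a class border, at levels of 74.26 and 107.69, and the class between them had a median of 0.65.

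Since fibrillar collagens mark fibroblasts in tissue, markers of other cells were read beside COL1A1 and COL5A2. Over all tested genes 27.1% were called after heteronemin, 1.26% after tetrac and 22.3% under the combination. Of 9 measured fibroblast and stromal markers, 0 were called in any comparison. Their summed means were 467.79 with heteronemin, 354.96 with tetrac and 363.7 with the combination, against 298.29 in control. At the floor were 1, 1 and 3 of the 9 in the same treated groups, against 6 in control. Their median log2 ratio was 0.58 after heteronemin, 0.32 after tetrac and 0.30 under the combination, above the medians over all genes. The 6 markers at the floor in control cannot be listed lower, so nothing is read from that difference. Panel genes with a mean level under 50 had medians of 0.51, 0.26 and 0.26 in the same order. With heteronemin the mean was 73.66 for PDGFRB, 69.76 for THY1, 59.26 for LUM and 49.43 for FAP, against 33, 33.89, 33 and 33 in control, and in the authors' deposited table PDGFRB had p = 0.05 and THY1 p = 0.06. POSTN was at 33 under the combination and in control, and FBN1 was at 33 in all treated groups. Of 4 endothelial markers 0 were called, and of 2 blood cell markers CD34, which some stromal and endothelial cells also carry, rose 2.38-fold after heteronemin, with means of 84.66 after heteronemin and 35.63 in control. The part of these markers in the results was not tested, and a change in the number of cells of a type cannot be told apart from a change in RNA per cell. For the labelled epithelial cell type, the markers EPCAM, CDH1, KRT19, CLDN4 and CLDN7 had means of 373.64 or more in every group. CDH1, the E-cadherin gene, fell 1.36-fold after heteronemin, and CLDN7, a tight junction claudin, rose 1.31-fold under the combination.

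Genes that make, bind or degrade collagen were then read as lists that were drawn up with earlier results of these tables known. Their counts of calls stand beside 27.1% of all tested genes called after heteronemin and 22.3% under the combination, and their medians beside 0.11, 0.02 and 0.09 over all genes after heteronemin, tetrac and the combination. Of 5 measured genes of collagen processing and crosslinking, 2 rose and 1 fell after heteronemin. PCOLCE, which enhances the cleavage of procollagen, rose 2.49-fold, with a mean of 82.05 after heteronemin and the floor value in control. LOXL2, a lysyl oxidase that crosslinks collagen, rose 1.99-fold, to 110.43 after heteronemin against 55.58 in control. P3H1, a prolyl 3-hydroxylase, fell 1.34-fold, with means of 188.31 after heteronemin and 252.98 in control. The other 2 were LOX, at the floor in all groups, and SERPINH1, the collagen chaperone HSP47, at log2 ratios of -0.16 after heteronemin and -0.08 under the combination, not called. Under the combination and after tetrac 0 of the 5 were called, and the list median was 0 in each comparison.

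Of 8 collagen receptors, 1 rose and 2 fell after heteronemin, and 0 rose and 2 fell under the combination. ITGA2, the alpha chain of the collagen-binding integrin alpha2beta1, fell 1.59-fold after heteronemin, to a mean of 236.63 against 376.53 in control, and 1.32-fold under the combination, to 284.45. ITGA1, the alpha chain of a second collagen-binding integrin, fell to the floor after heteronemin, against 46.16 in control. CSPG4, a cell surface proteoglycan that binds collagen VI, rose 1.57-fold after heteronemin, with means of 111.78 after heteronemin and 71.02 in control. CD44 fell 1.19-fold under the combination. DDR2, a receptor kinase for fibrillar collagen, had a mean of 78.28 after heteronemin against the floor in control and was not called (p = 0.14 in the authors' deposited table). The list median log2 ratio was 0 after heteronemin and 0.07 under the combination.

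Of 14 collagenases, gelatinases, cathepsins and inhibitors, 1 rose and 2 fell after heteronemin, and 1 rose and 1 fell under the combination. CTSK, a cathepsin that cleaves collagen I, rose 1.65-fold after heteronemin, and CTSL rose 1.91-fold under the combination. MMP14, a membrane collagenase, fell 1.52-fold after heteronemin and 1.27-fold under the combination, and TIMP1, an inhibitor of matrix metalloproteinases, fell 1.45-fold after heteronemin. The interstitial collagenase MMP1 had a mean of 80.61 after heteronemin and the floor value in control, with a printed p of 0.05 and no call in the authors' deposited table. The called genes were 3 of 12 tested after heteronemin and 2 of 13 under the combination, shares below those over all genes. The list median was 0.56 after heteronemin, 0.19 after tetrac and 0.28 under the combination, with 8 of 14 control means at the floor.

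Of 19 proteoglycans and matricellular proteins that sit on collagen fibrils or among them, 4 rose and 1 fell after heteronemin, and 3 rose and 1 fell under the combination. DPT, or dermatopontin, rose 2.73-fold after heteronemin and 2.31-fold under the combination, with means of 91.45 and 77.54, against 33.53 in control. SPP1, or osteopontin, rose 3.77-fold and 3.78-fold, and THBS1, or thrombospondin-1, 1.49-fold and 1.53-fold. COMP, the cartilage oligomeric matrix protein, rose 2.41-fold after heteronemin. FN1, the fibronectin gene, fell 1.41-fold to the floor in both comparisons, and VCAN was 1.68-fold lower under the combination without a call (p = 0.05 in the authors' deposited table). The called genes were 5 of 18 tested after heteronemin and 4 of 15 under the combination, shares near those over all genes. The list median was 0.69 after heteronemin, 0.26 after tetrac and 0.39 under the combination, with 11 of 19 control means at the floor.

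Microfibril and basement membrane genes are the molecular neighbours of collagens VI and XVIII. Of 7 microfibril and elastic fibre genes, 0 were called after heteronemin and 2 fell under the combination. FBLN1, or fibulin-1, fell 1.52-fold, to a mean of 115.99 under the combination against 175.73 in control, and LTBP4 fell 1.26-fold. All 7 genes were tested, and 14.1% of all tested genes were called lower under the combination. The list median was 0.41 after heteronemin, 0.29 after tetrac and 0.11 under the combination, with 3 of 7 control means at the floor. FBN1 and FBLN5 were near it, at 33.2 and 36.35 in control. These genes had little or no room to fall, so the median is not read as a trend against FBLN1 and LTBP4. Of the 13 basement membrane genes other than collagens that are reported here, 2 rose after heteronemin and 3 under the combination, while after tetrac 1 fell. The laminin chains LAMA3 and LAMB3 rose 2.51-fold and 2.12-fold after heteronemin and 2.48-fold and 3.57-fold under the combination. LAMA5 rose 1.12-fold under the combination and fell 1.1-fold after tetrac. HSPG2, which encodes perlecan, and AGRN, which encodes agrin, are basement membrane heparan sulfate proteoglycans like collagen XVIII, and their log2 ratios under the combination were -0.23 and 0.02, neither called.

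Of the 6 genes reported here of the TGF-beta pathway, a known inducer of collagen transcription, 2 fell after heteronemin and 3 under the combination. TGFB1 fell 1.31-fold under the combination, to a mean of 216.72 against 283.33 in control, SMAD2 fell 1.3-fold and the receptor TGFBR2 1.21-fold. After heteronemin TGFBR2 fell 1.29-fold and SMAD4 1.14-fold. After tetrac 0 of the 6 were called. Over all tested genes 15.9% were called lower after heteronemin and 14.1% under the combination, and the median log2 ratio of the 6 was -0.20 and -0.21 in the same order. Panel genes with a mean level from 200 to under 400 had medians of -0.15 and -0.08. From 400 to under 800 they were -0.32 and -0.21, and from 800 up -0.39 and -0.25. Under the combination 27 of 106, 23 of 76 and 27 of 84 genes of these classes were called lower. The called genes of the list lie in these classes, so no fall particular to the pathway is read.

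**Figure D4:**
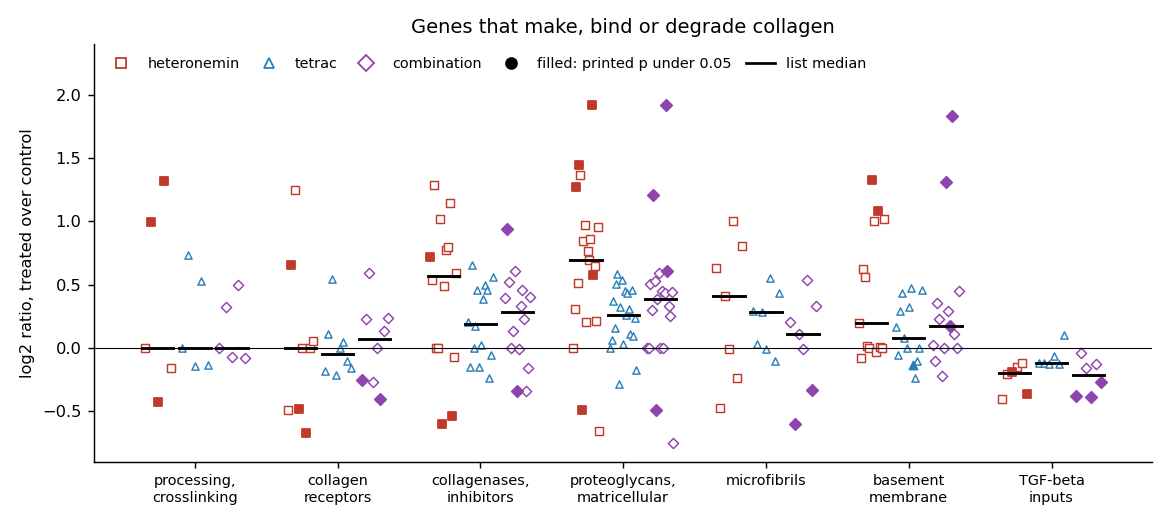
Log2 ratio, treated over control, of each reported gene in 7 lists of genes that make, bind or degrade collagen or share its matrix, with heteronemin, tetrac and combination from left to right in each list, filled symbols at a printed p under 0.05 and black bars at the list medians. The medians of the proteoglycan and matricellular list (0.69, 0.26 and 0.39) are the highest drawn for heteronemin and the combination.

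The panel genes whose group means ran most like each collagen were found by the Euclidean distance over the 4 group means on the log2 scale, each gene centred on its own mean, among 735 other endogenous genes. Nearest to COL1A1 were COL7A1 at a distance of 0.10 and ZEB1, a repressor of E-cadherin, at 0.13. Nearest to COL5A2 were TNS1, or tensin-1, at 0.13 and the transcription factor TWIST1 at 0.13. Nearest to COL6A1 were NME4, a mitochondrial nucleoside diphosphate kinase, at 0.07 and TGFB1 at 0.07. Nearest to COL6A2 were SRPK2, a kinase of splicing factors, at 0.01 and MTDH, or metadherin, at 0.03. Nearest to COL18A1 were the fibroblast growth factor FGF9 at 0.04 and EVPL, or envoplakin, at 0.06. The 5 collagens fell apart by the same measure: COL6A1 and COL18A1 were 0.13 from each other, COL6A1 and COL6A2 0.32, COL1A1 and COL5A2 0.49, and COL1A1 and COL18A1 1.33. All distances come from the same 4 means and are a description.

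In the RefSeq gene table, COL6A1 and COL6A2 are adjacent coding genes, and COL18A1 is separated from COL6A1 by 2 coding genes. The adjacent pair differed under the combination, with log2 ratios of -0.47 for COL6A1 and -0.12 for COL6A2. COL5A2 is adjacent to COL3A1, and their log2 ratios after heteronemin were 0.92 for COL5A2 and 0.87 for COL3A1. After tetrac they were 0.01 for COL5A2 and 0.48 for COL3A1, with COL3A1 at the floor in control.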

How the data were processed

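Raw nCounter counts were normalized by the authors in nSolver 4.0, both technically, through a factor from the positive controls, and biologically, per the series' design text. The deposited signal is a mean of these normalized values for each treatment and for control, in 3 tables with an identical control column. The deposited score is the fold change with a minus sign where the treated mean is lower, within 0.00511 of the quotient of the means. The authors deposited a p-value printed to 2 decimals, empty where both means are at the floor, and the test behind it is not given in the sources used here. A printed p of 0 means a p under 0.005.

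From these, log2 ratios of treated over control means, Benjamini-Hochberg adjusted p-values over all genes of a table, list counts, distances and motif matches were computed with Python 3.11.15, numpy 2.4.6, scipy 1.17.1, pandas 2.3.3 and matplotlib 3.10.9. The calling and adjustment were tested on simulated tables. The members and the 11 gene lists were chosen with earlier results of these data known. Named genes are the 5 members, the other collagens, up to 4 called members per list and comparison with the largest change, the 2 nearest genes by distance and adjacent panel genes. Genes given as not called (LOX, SERPINH1, DDR2, MMP1, VCAN, HSPG2 and AGRN), the cell type markers, SOD1 and SLC37A1 were named after their values were seen. Symbols are those of the tables: 755 of 770 matched the RefSeq gene table directly and 15 by accession. The tables name no build. Some genes of the lists are not reported here.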

Additional observations from a re-analysis of the deposited data

How the results depend on the processing

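No paired analysis was possible because the tables hold group means and carry no replicate numbers. Leaving out samples was not possible for the same reason. The count of 2 collagen genes called after heteronemin became 0 when p-values were adjusted by Benjamini and Hochberg's method, as printed or at the largest value that rounds to them, and 1 when a mean level of at least 100 was required. The count of 3 under the combination became 0 after both adjustments and 1 with a fold of 1.5 or more. Taking the largest p without adjustment left both counts as they were, and tetrac had 0 in all settings. The shares of all genes called with the level or the fold filter were not computed. The drops under these filters are therefore not read as particular to the collagens. Of 75 recomputed log2 ratios against control, under 5 alternatives, 68 kept their sign. Many could not change: adding 20 to both means keeps every sign, and the deposited fold change is the same quotient, rounded. Setting the housekeeping genes equal shifted ratios by at most 0.017. Every change of sign came from equal panel sums or from subtracting the median of genes of like level, so the total says little about robustness. Scaling to equal panel sums raised the median ratio of all genes by 0.25 after heteronemin, 0.12 after tetrac and 0.17 under the combination, and turned the called ratio of COL6A2 under the combination to 0.0485. It also put COL6A1 at 0.00 and COL6A2 at 0.03 after heteronemin, and COL6A1 at 0.01 and COL18A1 at 0.03 after tetrac. All 5 of these ratios lay below the median of all genes on that scale, which was 0.36, 0.14 and 0.25 in the same order of treatments. Subtracting the median of the 51 genes nearest in level put COL5A2 at -0.23 after tetrac and -0.14 under the combination. The same step put the ratio of the combination over heteronemin at 0.00184 for COL1A1 and -0.27 for COL5A2. The other ratios between treatments moved by less than 0.2 on the log2 scale with the sign kept. So did the additivity values of the 5 genes, but these were recomputed only with 20 added to each mean and with the housekeeping genes set equal. Additivity was not recomputed on equal panel sums or against genes of like level, so its dependence on those steps is not known. Depth and spread per sample are unknown, so small differences such as that of COL6A2 have no interval.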

Other observations

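The RefSeq gene table puts 14 panel genes on chromosome 21, where COL6A1, COL6A2 and COL18A1 lie. Of the other 11, SOD1 was the 1 gene called lower under the combination and 0 were called higher, with 6 of the 11 at the floor in control. Over all tested genes 14.1% were called lower and 8.16% higher under the combination, and 15.9% and 11.2% after heteronemin. Nothing about the chromosome is read from counts among 11 genes. SOD1, the cytosolic superoxide dismutase, had a mean of 282.31 with heteronemin, 279.89 with tetrac and 257.41 with the combination, against 316.85 in control. After heteronemin SOD1 was called lower and SLC37A1, a sugar phosphate carrier, was called higher, with means of 96.55 after heteronemin and 52.89 in control. The median log2 ratio of the 11 genes was 0.58 after heteronemin, 0.29 after tetrac and 0.31 under the combination.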
